A study of Mus musculus and Homo sapiens with 10 samples.

Results

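The MAGE family was followed in H1 human embryonic stem cells after hairpins against the DNA methyltransferases (DNMTs) were introduced by lentivirus. Members were the gene symbols of the human RNA-seq table that begin with MAGEA, MAGEB, MAGEC, MAGED, MAGEE, MAGEF or MAGEH, with no filter on level. They were 31 of the 22060 symbols, 23 in subfamilies A to C and 8 in subfamilies D to H. The knockdown library came from cells carrying sh-DNMTs and the control library from cells carrying an empty hairpin vector (sh-empty), both at passage 69, and the labels give no time after transduction. The other 8 of the 10 samples in the series were mouse samples and were not used here. H1 is a single established line, and with 1 library per group no spread between cultures could be estimated. Every difference below is therefore between these libraries, and intervals cover counting error only.

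MAGE proteins share a fold called the MAGE homology domain, through which many of them bind and steer ubiquitin ligases of the RING type. Human subfamilies A, B and C are encoded on the X chromosome. They are normally expressed in male germ cells, are silent in most other tissues under promoter DNA methylation, and reappear in tumours, where their peptides are T cell antigens. Subfamilies D to H are expressed in many tissues.

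RNA was cytoplasmic and poly(A)-selected. The authors deposited RPKM, that is reads per kilobase of a RefSeq entry scaled to the library total, and the entry with the highest mean was used for each symbol. The totals worked out from the values were 92478094 reads for the knockdown and 100921087 for the control, so that 1 read in an entry of 1700 bases is worth 0.00636 and 0.00583 RPKM. DNMT1, the maintenance methyltransferase, stood at 6.95 RPKM in the knockdown and 24.5 in the control (28.4% of control, 95% counting interval 27.3 to 29.5%). The de novo enzyme DNMT3B stood at 75.9 against 181 RPKM (41.9%) and DNMT3A at 12.2 against 17.9 (67.9%). DNMT3L, their catalytically inactive cofactor, had 7 reads in the knockdown and 10 in the control. Each of the 10 pluripotency markers examined was above 10 RPKM in both libraries. By a 2-fold step on log2(RPKM + 0.1), 1 was higher in the knockdown (L1TD1) and 2 were lower (TDGF1 and DNMT3B, itself a DNMT). Of all symbols 5.83% were higher and 5.49% were lower by this step. POU5F1 stood at 893 RPKM in the knockdown and 921 in the control, SOX2 at 66.4 and 107, and NANOG at 32.6 and 17.3. The NODAL coreceptor TDGF1 stood at 144 and 418 RPKM, and L1TD1, an RNA-binding protein derived from L1, at 223 and 80.3.

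Most members of subfamilies A to C were higher in the knockdown. A symbol was counted as higher or lower when log2(RPKM + 0.1) differed by at least 1, a 2-fold step on that scale. By this rule 17 of 23 A to C members were higher and 0 were lower, while 1286 of all 22060 symbols were higher (5.83%) and 1210 were lower (5.49%). The median log2 difference was 3.68 for A to C, beside 0.00 for all symbols. At a 4-fold step the count was 16 of 23, beside 1.35% of all symbols. The remaining 6 members had at most 0.0831 RPKM in the knockdown and at most 0.0214 in the control, levels at which the added 0.1 dominates. In bulk RNA, more cells expressing a gene and more RNA per cell cannot be told apart.

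**Figure D1:**
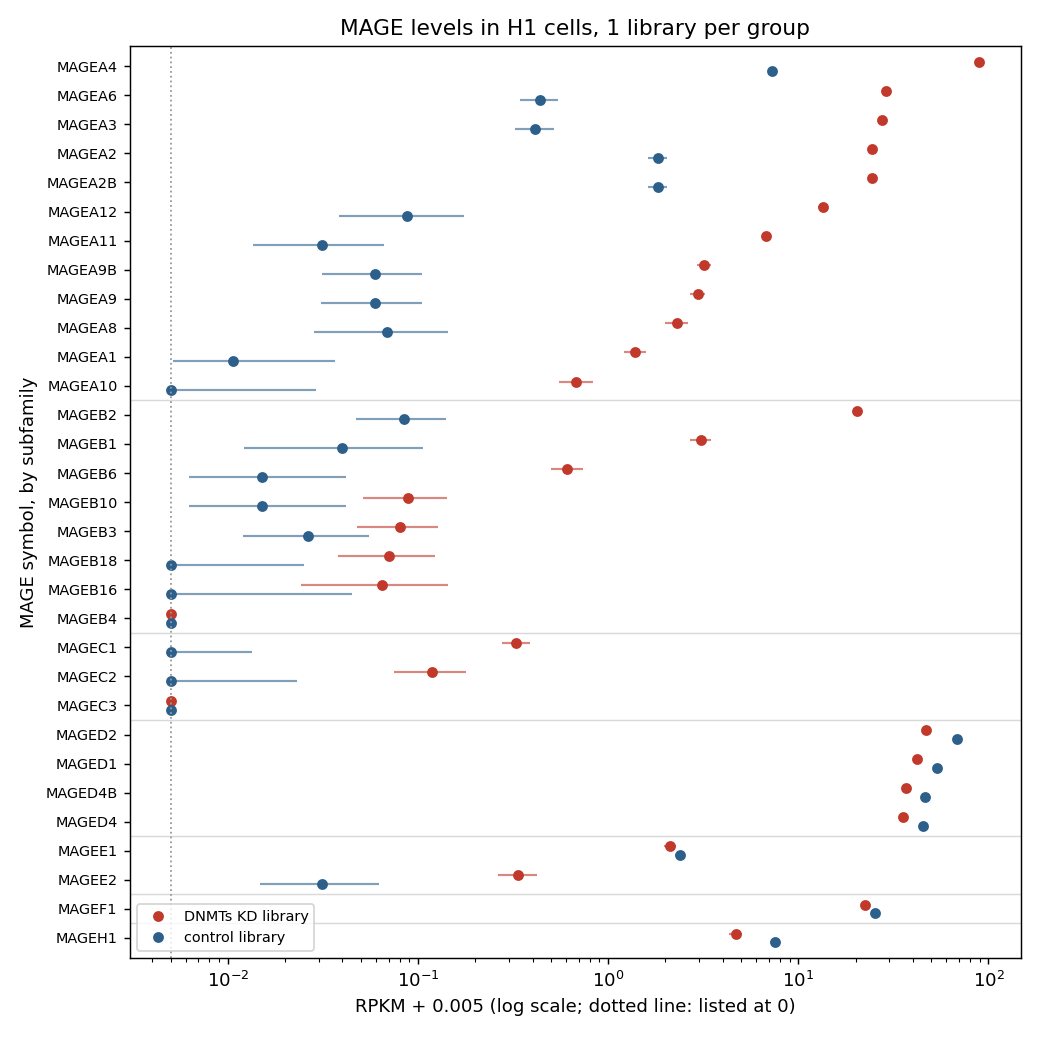
RPKM of each of the 31 MAGE symbols in the DNMT knockdown library (red) and the control library (blue), on a log axis with 0.005 added; lines are 95% exact Poisson counting intervals and the dotted line marks values listed at 0. The red points of the 12 MAGEA symbols lie between 0.676 and 88.8 RPKM, right of their blue points, whereas the 4 MAGED symbols lie between 35.7 and 46.8 RPKM in red, left of their blue points.

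MAGEA4, which binds the ubiquitin ligase RAD18 and is a target of engineered T cell receptors, had the highest level of A to C in both libraries. Its entry (NM_002362) stood at 88.8 RPKM in the knockdown (95% counting interval 87.4 to 90.3) and at 7.29 in the control (6.90 to 7.70). The ratio was 12.2 (11.5 to 12.9). By level, MAGEA4 ranked 466 of all symbols in the knockdown and 5638 in the control. It was the single A to C member among the 1000 highest symbols in the knockdown, and in the control there was none.

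MAGEA3 and MAGEA6, near-identical proteins that bind the ligase TRIM28 and direct it to the energy sensor AMPK, stood close together. MAGEA6 had 29.0 RPKM in the knockdown and 0.431 in the control, a ratio of 67.1 (53.4 to 85.5). MAGEA3 had 27.5 RPKM in the knockdown and 0.407 in the control, a ratio of 67.5 (53.5 to 86.4). The counting intervals of their levels overlapped in both libraries, and their order was not tested. The sources used here do not say how reads matching both copies were placed, so the level of each copy alone is uncertain.

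MAGEA2 and MAGEA2B, also TRIM28 partners, are listed under the same RefSeq entry (NM_153488) and have the same values. They stood at 24.5 RPKM in the knockdown and 1.82 in the control, a ratio of 13.4 (11.9 to 15.2). With MAGEA4 they were the only A to C symbols above 1 RPKM in the control, and their ratios were the smallest among the MAGEA symbols with any control reads. The knockdown level of MAGEA2 was nonetheless below those of MAGEA3 and MAGEA6, while in the control it was above both.

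The other MAGEA symbols started near the limit of detection. MAGEA12, an antigen seen by tumour-reactive T cells, stood at 13.5 RPKM in the knockdown and 0.0827 in the control (ratio 164, counting interval 79.2 to 409). MAGEA11, a coregulator of the androgen receptor, stood at 6.78 RPKM in the knockdown and 0.0262 in the control, with 1186 and 5 reads (ratio 259, 111 to 799). Both ratios were above that of MAGEA4, and their intervals did not overlap with its interval. MAGEA1, the founding human tumour antigen of this family, had 223 reads in the knockdown and 1 read in the control (1.37 and 0.00565 RPKM), so its ratio of 243 has an interval of 43.2 to 9655.

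MAGEA9B and MAGEA9, another pair of near-identical copies, stood at 3.19 and 2.96 RPKM in the knockdown and at 0.0546 and 0.0543 in the control. MAGEA8 had 2.29 RPKM in the knockdown and 0.0639 in the control, a ratio of 35.8 (16.2 to 98.8). MAGEA10, also a T cell antigen, had 0.676 RPKM and 95 reads in the knockdown and was listed at 0 in the control. Against the floor of 3 reads in the control library its ratio was 34.6, without the counting error of the knockdown reads. All 12 MAGEA symbols were thus past the 2-fold step, beside 5.83% of all symbols. Of the 12, 11 reached 1 RPKM in the knockdown and 3 in the control, beside 52.5% and 52.9% of all symbols.

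Subfamily B was divided. MAGEB2, which limits stress granules by lowering the granule protein G3BP1, stood at 20.2 RPKM in the knockdown (3046 reads) and 0.0791 in the control (13 reads). With 0.1 RPKM added to both values, its log2 difference of 6.83 was the largest of the 31 members and ranked 7 among all symbols. Without that addition its ratio was 256 (149 to 481), and that of MAGEA11 was 259. MAGEB1 stood at 3.08 RPKM in the knockdown and 0.0348 in the control, where it had 3 reads (ratio 88.4, 29.9 to 432). MAGEB6 followed with 0.605 RPKM in the knockdown and 0.0102 in the control, where it had 2 reads (ratio 59.5, 16.1 to 497).

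The other 5 MAGEB symbols stayed under 0.1 RPKM in both libraries. MAGEB10 had 15 reads in the knockdown and 2 in the control (ratio 8.18, 1.90 to 73.8), and MAGEB3 had 16 and 5 reads (ratio 3.49, 1.22 to 12.2). MAGEB18, a partner of the ligase LNX1, had 11 reads in the knockdown and MAGEB16 had 5, and both were listed at 0 in the control. Against the control's floor of 3 reads their ratios were 4.00 and 1.82, without the counting error of the knockdown reads. The level intervals of MAGEB16 overlapped, at 0.0193 to 0.139 RPKM in the knockdown and 0 to 0.0402 in the control. Where the length worked out for an entry is a fraction of the true one, its reads are understated. Its interval is then too wide, and a ratio to the floor of 3 reads is too low. This may hold for MAGEA8, MAGEA12, MAGEB1 and MAGEB16. The entries used for MAGEA12 and MAGEA8 gave 7 and 6 control reads, whereas their longer entries gave 12 or 13. MAGEB4 was listed at 0 in both libraries, and a count of 0 does not exclude a low level. The floor of 3 reads lies under the upper end of the level interval for a count of 0. For MAGEB16 in the control these were 0.0327 and 0.0402 RPKM.

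Subfamily C had the lowest summed level and the lowest maximum of the 3, although its median knockdown level of 0.113 RPKM was above the 0.0790 RPKM of subfamily B. MAGEC1, an antigen of multiple myeloma, had 0.324 RPKM in the knockdown and was listed at 0 in the control. MAGEC2, a TRIM28 partner that lowers p53, had 0.113 RPKM in the knockdown (21 reads) and was also listed at 0 in the control. Against the floor of 3 control reads their ratios were 47.3 and 7.64, without the counting error of the knockdown reads. MAGEC3 was listed at 0 in both libraries. The span from MAGEA4 to MAGEC2 shows that A to C members that were higher in the knockdown ended at very different levels.

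**Figure D2:**
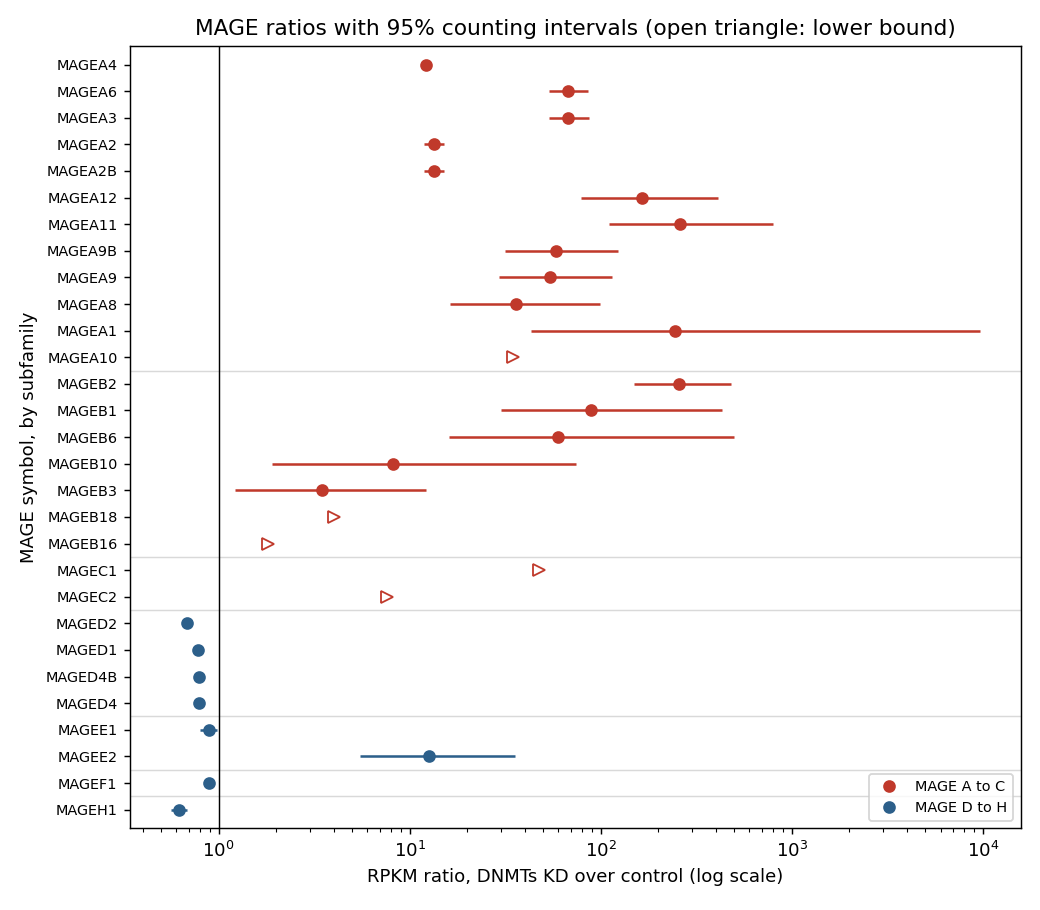
Ratio of RPKM, DNMT knockdown over control, on a log axis for the 29 MAGE symbols with reads in the knockdown. Lines are exact 95% counting intervals. Open triangles (lower bounds in the title) set the knockdown value against 3 control reads and leave out its counting error. Ratios of A to C symbols (red) lie at 3.49 and above, with triangles from 1.82. D to H symbols (blue) lie between 0.620 and 0.888 except MAGEE2 at 12.5.

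The order of levels within A to C was similar in both libraries, with a Spearman correlation of 0.909 over the 23 symbols. These symbols share libraries and, for copies, reads. In the control 7 of them were tied at 0 and 11 had few reads, so their order there is uncertain. Ratios are given here by control level, which is also their denominator, and the ranges overlap. The 5 symbols with at least 0.1 RPKM in the control had ratios of 12.2 to 67.5, and the 11 with control reads below that level had ratios of 3.49 to 259 with a median of 59.5. The other 7 were listed at 0 in the control, and 5 of them had reads in the knockdown. Of the 18 A to C symbols under 0.1 RPKM in the control, 8 reached 1 RPKM in the knockdown, beside 64 of the 6904 symbols of the table under 0.1 (0.927%); this split was chosen after seeing the values. Among the 100 symbols with the largest log2 differences of RPKM + 0.1, 13 belonged to A to C, which holds 23 of all 22060 symbols. Copies such as MAGEA2 and MAGEA2B were counted as separate symbols there.

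**Figure D3:**
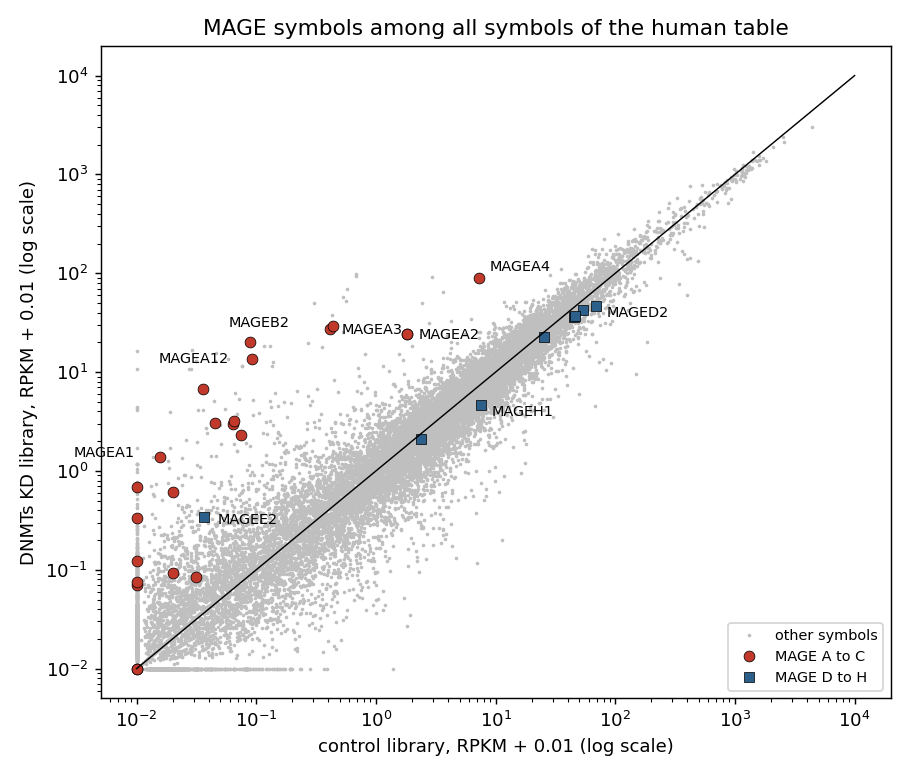
Level of each symbol in the DNMT knockdown library (vertical axis) against the control library (horizontal axis), RPKM + 0.01 on log axes, with the line of equality. A to C symbols (red circles) lie above the line except MAGEB4 and MAGEC3 at the origin, and D to H symbols (blue squares) lie just below it except MAGEE2.

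Where a symbol had several RefSeq entries, these gave like ratios. In all, 13 of the 31 members had more than 1 entry. The ratio ranged from 12.2 to 12.3 over the 4 entries of MAGEA4, from 13.2 to 13.7 over the 4 of MAGEA2, and from 164 to 174 over the 3 of MAGEA12. It ranged from 225 to 259 over the 2 entries of MAGEA11 and from 82.9 to 88.4 over the 3 of MAGEB1. Entries of a symbol share most of their reads and are not independent. The exception was a short non-coding entry shared by MAGED4 and MAGED4B, which stood at 0.341 RPKM in the knockdown and 1.09 in the control with 4 and 14 reads.

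Most members of subfamilies D to H were slightly lower in the knockdown. The log2 difference was below 0 for 7 of 8, beside 9055 of all 22060 symbols (41.0%). Each of these 7 had 10.4 to 29.7% of all symbols below it. Of the 8 symbols, 1 was higher by the 2-fold rule and 0 were lower, 12.5% beside 5.83% and 0 beside 5.49% of all symbols. The median log2 difference was -0.34. MAGED2, a regulator of renal salt transport, had the highest level of D to H in both libraries at 46.8 RPKM in the knockdown and 68.7 in the control (68.1% of control). MAGED1, an adaptor of the p75 neurotrophin receptor, stood at 42.1 and 53.8 RPKM (78.2%). MAGED4B and MAGED4, near-identical genes with high expression in brain, stood at 79.1% and 78.8% of control, with 36.8 and 35.7 RPKM in the knockdown and 46.5 and 45.3 in the control. The 4 MAGED symbols were thus all somewhat lower, within the 2-fold step.

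MAGEH1 stood at 4.67 RPKM in the knockdown and 7.54 in the control, 62.0% of control, the lowest share among members with control reads. MAGEF1, which works with the ligase NSMCE1 against the iron-sulphur assembly factor MMS19, stood at 22.5 and 25.3 RPKM (88.8%). MAGEE1, a binding partner of dystrobrevin, stood at 2.11 and 2.38 RPKM (88.7%). All 7 of these D to H intervals lay below 1, a statement on counting error in 2 libraries and not on cultures. With 637 or more reads each, small differences give such intervals, and the share over all symbols was not worked out. MAGEE2 was the exception among D to H symbols, with 0.331 RPKM and 69 reads in the knockdown against 0.0263 RPKM and 6 reads in the control (ratio 12.5, 5.48 to 35.4). It was also the only D to H symbol under 0.1 RPKM in the control.

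Summed over symbols, subfamily A had 225 RPKM in the knockdown and 12.1 in the control, an 18.7-fold ratio. Subfamily B had 24.2 and 0.156 RPKM (155-fold), of which MAGEB2 gave most. Subfamily C had 0.437 RPKM in the knockdown and was listed at 0 in the control. Subfamily D had 161 RPKM in the knockdown and 214 in the control, a ratio of 0.753. The A to C sum was 131% of the D to H sum in the knockdown, 249.6 against 191 RPKM, and 4.89% of it in the control, 12.2 against 249.7 RPKM. With 1 symbol of each near-identical pair, a choice made after seeing the values, the A to C sums were 193 and 9.91 RPKM and the D to H sums 154 and 203 RPKM. MAGEA4 made up 35.6% of the A to C sum in the knockdown and 59.7% in the control.

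**Figure D4:**
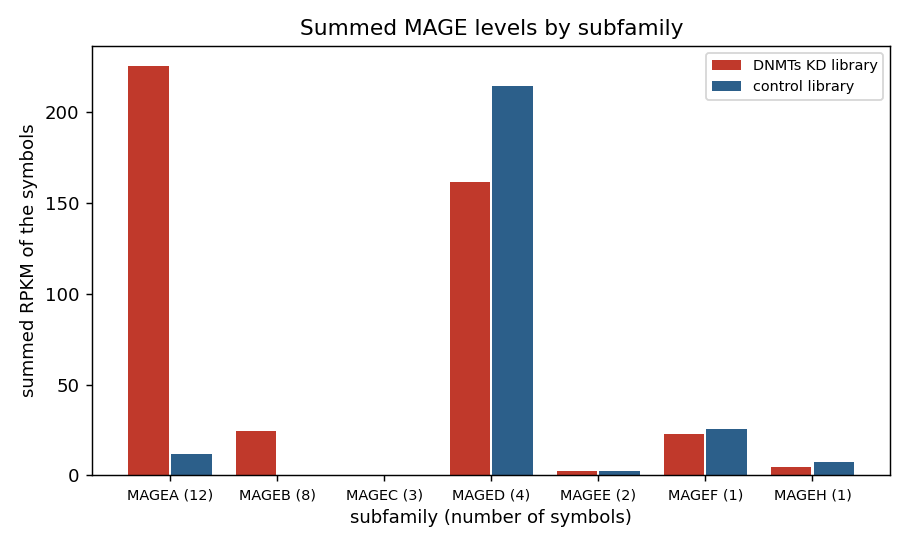
Summed RPKM of the symbols of each MAGE subfamily (number of symbols in brackets) in the DNMT knockdown library (red) and the control library (blue). MAGEA stands at 225 against 12.1 RPKM and MAGED at 161 against 214 RPKM.

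MAGE genes with names outside the symbol rule stayed within the 2-fold step, 4 of 4 beside 88.7% of all symbols. NDN (necdin), an imprinted regulator of neuronal growth, stood at 12.4 RPKM in the knockdown and 9.46 in the control. NDNL2, the MAGE subunit of the SMC5/6 DNA repair complex, stood at 7.30 and 9.04 RPKM, and TRO (trophinin), linked to embryo adhesion, at 10.1 and 13.8 RPKM. MAGEL2, which acts with TRIM27 and USP7 in endosomal recycling, stood at 0.745 and 1.26 RPKM. The median log2 difference of these 4 was -0.37.

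Partners of MAGE proteins stayed within the 2-fold step about as often as symbols in general, 12 of 13 beside 88.7% of all symbols. TRIM28, the ligase bound by MAGEA2, MAGEA3, MAGEA6 and MAGEC2, stood at 233 RPKM in the knockdown and 182 in the control (128% of control). Of 13 partner ligases and regulators, 0 were higher and 1 was lower, beside 5.83% and 5.49% of all symbols, with a median log2 difference of 0.25. The lower one was LNX1, the MAGEB18 partner, at 0.873 RPKM in the knockdown and 2.37 in the control. PJA1, the Praja ligase bound by MAGED1, stood at 14.5 and 10.3 RPKM, while its paralogue PJA2 stood at 12.5 and 23.8 RPKM. MMS19, the MAGEF1 target, stood at 22.2 and 30.8 RPKM, and DCAF12, the receptor that marks MAGEA3 and MAGEA6 for degradation, at 8.32 and 7.71 RPKM. Of the 6 SMC5/6 genes 0 were past the step, with log2 differences of -0.30 (NDNL2) to 0.33 (NSMCE1, the ligase subunit).

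CSAG1 and CSAG2, small cancer-testis genes that lie among the MAGEA genes, were both higher. CSAG1 stood at 4.19 RPKM in the knockdown and 0.0444 in the control, where it had 3 reads (ratio 94.2, 31.9 to 460). CSAG2 stood at 1.82 and 0.548 RPKM (ratio 3.32, 2.03 to 5.65). Among other cancer-testis families, 36 of 42 GAGE, PAGE, XAGE, SSX and CTAG symbols and 4 of 4 VCX symbols were higher (5.83% of all symbols), and 0 were lower (5.49% of all symbols). Their median log2 differences were 3.59 and 6.63, beside 3.68 for MAGE A to C. Many of these symbols are also near-identical copies.

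Most germ cell markers were higher alongside MAGE A to C. Of 10 such markers 8 were higher by the 2-fold rule and 0 were lower, beside 5.83% and 5.49% of all symbols, and their summed level was 118 RPKM in the knockdown and 6.77 in the control. DAZL, a germ cell RNA-binding protein, stood at 91.2 and 2.90 RPKM, and the transposon defence gene MAEL at 11.4 and 0.126. DDX4, the defining germ cell helicase, stood at 0.763 and 0.0321 RPKM. The markers not past the step were STRA8, the meiotic entry factor, at 0.0653 RPKM in the knockdown and listed at 0 in the control, and BOLL, a relative of DAZL, at 0.117 and 0.0357 RPKM. Markers of other lineages gave 1 higher and 0 lower of 8 for mesoderm and endoderm (FOXA2 at 1.24 and 0.00816 RPKM), and 0 and 0 of 6 for neuroectoderm. For trophoblast they gave 0 higher and 3 lower of 7 (KRT7 at 2.84 and 11.4 RPKM, CGA at 0 in both), and for fibroblasts 1 and 0 of 7. The higher fibroblast marker was THY1, at 109 and 35.2 RPKM, while the collagen genes COL1A1 (18.2 and 22.8 RPKM) and COL1A2 (26.1 and 36.7 RPKM) and the receptor PDGFRB (1.39 and 2.35 RPKM) were within the step. Shares of 5.83% higher and 5.49% lower over all symbols stand beside these counts. The summed levels of these 4 lists were 1.53 and 0.294, 191 and 120, 3.59 and 14.4, and 155 and 97.0 RPKM in the knockdown and control. Most of the neuroectoderm sum in each library was TUBB3, at 129 and 65.4 RPKM. Of the 6 neuroectoderm markers, 2 had log2 differences above 0 (TUBB3 and NES). The other 4 were below 0, among them OTX2 at 11.3 and 21.2 RPKM. Without THY1, a choice made after seeing the values, the fibroblast sums were 45.8 and 61.8 RPKM. The part of these cells or states in the MAGE values was not tested.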

How the data were processed

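The 2 human RNA-seq libraries (H1 cells, 1 per group) were used, assigned by their titles. The authors deposited RPKM per RefSeq entry and per L1 locus. Per the submitters' processing notes, Bowtie 0.12.5 and genome build hg19 belong to this series. The sources used here do not give read placement, annotation release or strand. Reads were recovered from the deposited RPKM. The L1 loci, whose lengths are known, gave the library totals (100% of loci whole within 0.01 reads). The smallest length of 50 to 120000 bases that made both values of an entry whole within 0.0001 reads was then taken. It can be a fraction of the true length, which understates reads and widens intervals. Ratio intervals are exact binomial (Clopper-Pearson) and level intervals exact Poisson, at 95%, from reads of the entry with the highest mean; PCR copies are not independent molecules, so they cover counting error only. No test was run. Python 3.11.15, pandas and SciPy were used. All members were accounted for, in full from 0.1 RPKM in either library; of other lists those with large differences were named, and a few others for their role. Members and lists were chosen with earlier results of these data known. Alternatives were the pseudocount, a filter at a mean of 0.05 RPKM, summed entries, median centring, a 4-fold step and copies counted once. Human promoter and protein sequences were not used here.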

Additional observations from a re-analysis of the deposited data

How the results depend on the processing

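The counts of higher and lower A to C members stayed within 1.5 times of 17 and at 0 under each alternative run, with 14 higher of 20 when 1 of each near-identical pair was kept (chosen after seeing the data) and 21 of 23 with a pseudocount of 0.01. The median log2 difference of A to C was 4.96 with a pseudocount of 0.01, 2.31 with 0.5 and 3.27 with 1 of each pair. The single higher D to H member, MAGEE2, was not past the step with a pseudocount of 0.5 or at 4-fold (0 in both cases). The ratio of summed MAGEA levels was 15.7 with the entries of a symbol summed, 19.6 with members of the same values counted once and 17.3 with 1 of each pair, and that of MAGED was 0.742 with entries summed and with 1 of each pair. None of the 55 alternative values reversed. Median centring shifted log2 differences by 0.017. The promoter CpG content planned for the members was not run. No paired analysis was possible because the human groups hold 1 library each and carry no shared replicate number, and the mouse libraries were not used. Depth limits the control values of the 18 of 23 A to C members under 0.1 RPKM there.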

Other observations

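Of 8 regulators linked to cancer-testis genes 3 were at least 2-fold higher in the knockdown and 0 were lower, beside 5.83% and 5.49% of all symbols, with a median log2 difference of 0.37. CTCFL, the testis paralogue of the insulator protein CTCF, stood at 24.6 RPKM in the knockdown and 8.56 in the control, while CTCF stood at 22.1 and 16.7 RPKM. BRDT, the testis bromodomain protein, stood at 0.737 and 0.0345 RPKM, and the growth regulator MYC at 28.2 and 11.6 RPKM. The ETS family member ETS2 stood at 6.75 and 9.83 RPKM.

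Of 11 readers of CpG methylation and silencing factors 0 were higher and 0 were lower, where 88.7% of all symbols were also within the 2-fold step, and the median log2 difference was -0.09. UHRF1 was also on this list but had no entry under that symbol. The deacetylase HDAC1 stood at 33.0 RPKM in the knockdown and 54.8 in the control, the related HDAC2 at 51.98 and 42.7, and the methyl-CpG-binding protein MBD1 at 1.09 and 1.70. MBD3, a subunit of the NuRD complex, stood at 19.6 and 13.9 RPKM.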
